A study of Mus musculus with 4 samples.

Results

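Alveolar type II cells were picked out of the mouse lung libraries by their surfactant transcripts. Members were chosen by measured values: a cell was taken when *Sftpc*, *Sftpb* and *Sftpa1* together made up at least 3% of its unique molecular identifiers (UMIs, which count each captured transcript once), when it held no UMI of the leukocyte gene *Ptprc* or the endothelial gene *Cdh5*, and when it had 200 to 7500 genes and at most 10% mitochondrial UMIs. This rule found 94 cells among the 11846 barcodes within the limits on genes and mitochondrial UMIs, out of 15428 barcodes in all. All mice were wild-type C57BL/6 males, either young (2 to 3 months) or aged (22 months). A restricted diet is given for the aged mice, and the sources do not make clear whether the young had it too, so that diet and age cannot be told apart. The ventilated mice were anesthetized, given analgesia and ventilated for 3 hours with pure oxygen at 20 mL/kg and 150 breaths per minute without end-expiratory pressure, and the nonventilated mice were naive. The tidal volume was capped at 0.6 mL, so that heavier mice received less per body weight, and the dose at the 2 ages may differ. Left lobes were digested to single cells, and the cells of 3 mice per group were frozen, thawed and pooled into 1 library, giving 4 libraries. Sets of 4 values below run from young to aged, and within each age from nonventilated to ventilated. With 1 library per group no group had a replicate and no test was made, and ventilation, anesthesia and oxygen cannot be told apart.

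Alveolar type II cells make, store and recycle surfactant, the film of lipids and proteins that keeps the air spaces from collapsing. They also secrete defense proteins, move salt and water out of the air space, and renew the alveolar epithelium after injury. In the course of that renewal they can pass through a transitional state marked by keratins such as *Krt8*, in which surfactant genes recede before flat alveolar type I cells form.

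In young lungs 19 type II cells were found without and 32 with ventilation, and in aged lungs 24 and 19. These were 0.646% (exact Clopper-Pearson 95% interval 0.389 to 1.01), 0.962% (0.659 to 1.36), 0.793% (0.509 to 1.18) and 0.745% (0.449 to 1.16) of the barcodes within the limits. The 4 intervals overlapped, and they cover counting error only. The members summed to 369262, 524625, 497832 and 455927 UMIs in the same order, with medians of 17691, 16706.5, 19110 and 26842 UMIs per cell. Their depth was above that of all barcodes within the limits, whose medians were 9974.5, 8994, 10753 and 10971 UMIs. The aged ventilated cells were the deepest, and 4 cells in all had under 2000 UMIs.

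The surfactant share chose the cells and is given as a description. Its median was 13.2% and 12.9% in young and 15.5% and 15.6% in aged cells, while over the other barcodes it came to 0.0375%, 0.0227%, 0.0641% and 0.0330% of the UMIs. Few barcodes lay near the threshold, with 6 members at 3 to 5% and 2 barcodes at 2 to 3%. The highest share just outside was 2.85% and the lowest inside 3.15%. The limit on *Ptprc* and *Cdh5* left out 15 of 109 barcodes with enough surfactant transcripts. The limit on mitochondrial UMIs mattered more, since 136 barcodes met every other part of the rule but had over 10% mitochondrial UMIs, more than the 94 members. Between pairs of libraries 23 cell barcodes were shared, none of them between members.

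**Figure D1:**
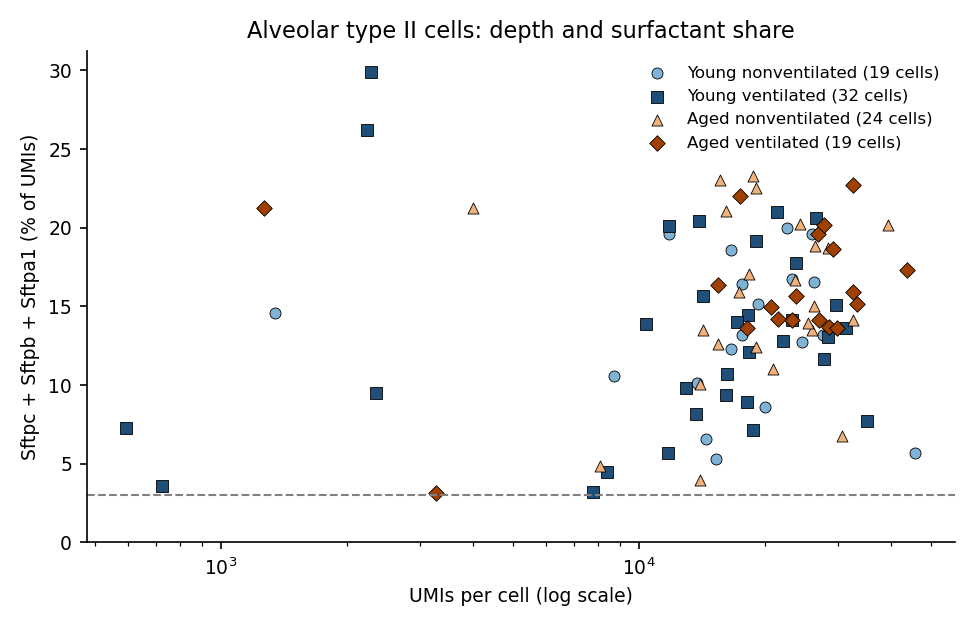
UMIs per cell (log axis) against the share of UMIs from *Sftpc*, *Sftpb* and *Sftpa1* for each of the 94 type II cells, colored by library, with the threshold of 3% as a dashed line. Most cells lie well above the line, and the medians of the 4 libraries lie between 12.9% and 15.6%.

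The label was checked against genes outside the rule. The lamellar body gene *Lamp3* was found in 19 of 19, 30 of 32, 24 of 24 and 18 of 19 cells, and the phosphate transporter *Slc34a2* in 19, 30, 24 and 19 of them. In counts per 1000000 UMIs of the members (CPM), *Lamp3* was at 1465, 1132, 1523 and 1331, and in the other barcodes at 4.10, 2.54, 6.18 and 3.26. All 4 T or NK cell markers and all 4 erythroid markers were at 0 in every library. Macrophage, monocyte, neutrophil, B cell and endothelial markers each summed to under 100 CPM. The rule left out cells with a UMI of *Ptprc* or *Cdh5*, so low leukocyte and endothelial values follow in part from that choice.

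Some cells carried transcripts of other types. Fibroblast markers summed to 1075, 13.3, 313 and 4.39 CPM, with *Inmt* the most abundant in the young and aged nonventilated libraries, where 1 cell each held 97.7% and 95.9% of its UMIs. Club cell markers summed to 1262, 2486, 560.4 and 5387 CPM, mostly from the secretoglobin *Scgb1a1*, and 1 cell held 86.4% of its UMIs in the young ventilated and 72.2% in the aged ventilated library. Alveolar type I markers summed to 1029, 2173, 1175 and 1241 CPM, led by *Ager*. Leaving out the 9 cells in which the markers of another type made up at least 0.5% of the UMIs (3 in each library other than the aged nonventilated) is given below for some of the values it changed.

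**Figure D2:**
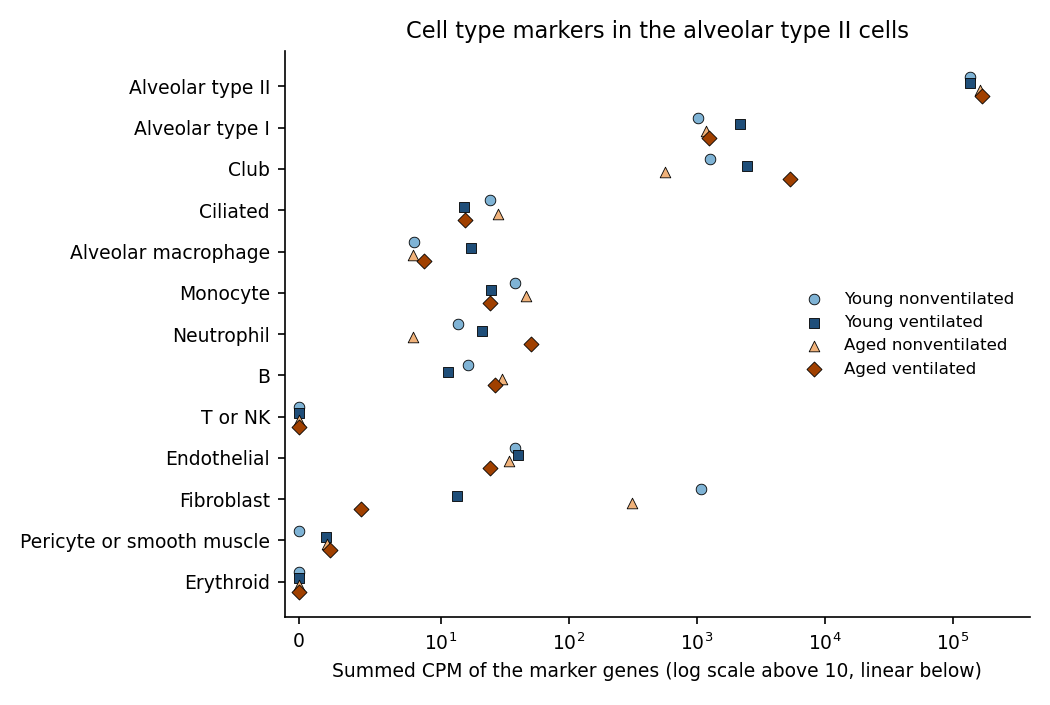
Summed CPM of the marker genes of 13 cell types in the type II cells of each library (log axis above 10 CPM, linear below). Type II markers, which hold the 3 surfactant genes that chose the cells, lie at 136132 CPM or above by that choice, type I markers at 1029 to 2173 CPM, club markers at 560.4 to 5387 CPM, and T or NK cell and erythroid markers are at 0.

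Genes were compared by the log2 ratio of their CPM between 2 libraries, with exact 95% intervals of the ratio that take in counting error alone and leave out how mice and captured cells vary. A gene was compared when its mean over both libraries was at least 100 CPM with at least 20 UMIs in both together, and it was counted as different when it differed at least 2-fold. The mean can pass through 1 high library, so the genes passing are not all the genes of a list, and the sums over whole lists are given for most lists as well. Ventilation was accompanied by differences of at least 2-fold in 242 of 1518 genes (15.9%) in young cells, with 118 higher (7.77%) and 124 lower (8.17%). In aged cells 136 of 1433 genes (9.49%) differed, with 50 higher (3.49%) and 86 lower (6.00%). With an upper limit of 5000 genes per cell the aged counts were 89 higher and 111 lower of 1418 genes (14.1%). Among 1299 genes compared at both ages, 20 were higher and 33 lower at both, and 1 was past 2-fold in opposite directions. Whether the ages differed in their response was not tested.

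The genes that were lower with ventilation were long. The median span of a gene from start to end was 99.3 kb for those at least 2-fold lower in young cells and 15.3 kb for those at least 2-fold higher, against 43.1 kb for all genes compared. In aged cells the medians were 142 kb, 14.9 kb and 35.2 kb. The nuclear RNA *Malat1* was at 32581, 38534, 32131 and 31288 CPM. Span was examined after the genes were seen, and its part in the differences was not tested.

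Genes of injured or transitional epithelium, a list of 17 genes of which 16 were in the files, were mostly higher with ventilation. *Sfn*, a 14-3-3 protein of stressed epithelium (chromosome 4, 133600556 to 133602168, GRCm38), had 1 UMI without and 259 UMIs with ventilation in young cells, and 4 and 101 UMIs in aged cells, which was 2.71, 494, 8.03 and 222 CPM. Nearly all of its UMIs were thus in the ventilated libraries. The ratio was 182-fold in young cells with an interval of 32.4 to 7228, and 27.6-fold in aged cells with an interval of 10.4 to 103. In the aged ventilated library 1 cell held 45.5% of the *Sfn* UMIs. In the other barcodes *Sfn* was at 7.93, 78.4, 14.7 and 68.7 CPM, so that it was higher with ventilation there too.

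The keratins of simple epithelium were higher with ventilation too. *Krt8* was at 138 and 1323 CPM without and with ventilation in young cells and at 197 and 787 CPM in aged cells. It was 9.58-fold higher in young cells (interval 7.20 to 13.0) and 1.99 higher on the log2 scale in aged cells (interval of the ratio 3.19 to 5.05). Per cell, its median was 86.2 CPM in young nonventilated and 1116 CPM in young ventilated cells. *Krt7* was at 62.3, 579, 76.3 and 375 CPM, and *Krt18*, the partner of *Krt8* in the filament, at 171, 934, 231 and 487 CPM. Each keratin was thus highest in the young ventilated and next in the aged ventilated library. In the barcodes over 10% mitochondrial UMIs the log2 ratios of *Krt8* were 1.04 in young and 1.67 in aged cells. Those of *Krt7* were 2.41 and 2.20.

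Other members of the list had their higher ratios in young cells. *Tnfrsf12a*, the receptor for the cytokine TWEAK, was at 16.2, 284, 24.1 and 74.6 CPM. *Anxa1*, a phospholipid-binding protein, was at 103, 846, 74.3 and 191 CPM. The EGF receptor ligands *Areg* and *Hbegf* were 2.31 and 2.21 higher on the log2 scale in young ventilated cells, and -0.33 and 0.67 in aged ones. *Areg* was at 152 and 761 CPM in the young and at 468 and 371 CPM in the aged cells, but its UMIs were spread unevenly over the cells. In aged nonventilated cells it was found in 14 of 24 and 1 cell held 37.3% of its UMIs, and the medians per cell were 0 CPM, 286 CPM, 59.3 CPM and 68.5 CPM. Its log2 ratio of aged over young without ventilation was 1.61, 0.98 with a surfactant share of at least 5%, and -0.98 in the barcodes over 10% mitochondrial UMIs.

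Of the list, 10 of 10 genes compared were at least 2-fold higher in young ventilated cells and 5 of 8 in aged ventilated cells (7.77% and 3.49% over all genes compared). The median log2 ratios were 3.00 and 1.20, beside 0.01 and -0.02 over all genes compared. In the barcodes over 10% mitochondrial UMIs these medians were 1.23 and 0.99, with 5 of 7 and 3 of 7 genes past 2-fold. Over all genes compared there, 9.54% and 7.30% passed in either direction. With a mitochondrial limit of 5%, which left 3 and 2 aged cells, the aged median turned to -2.59, with 0 higher and 3 lower of 5 genes. Of all 776 genes compared in that setting, 112 were higher and 144 lower. Without the low-value filter, 15 of 15 genes with any UMI were higher in young and 13 of 15 in aged ventilated cells. The whole list summed to 896, 6584, 1448 and 3139 CPM in type II cells and to 1063, 2591, 1211 and 2086 CPM in the other barcodes. Alveolar type I markers, at 1029, 2173, 1175 and 1241 CPM in type II cells, were also highest in the young ventilated library, and their part in the list's values was not tested. Among cells of at least 2000 UMIs, 23 of 30 young ventilated cells had a list sum above the highest young nonventilated cell. No aged ventilated cell lay above the highest aged nonventilated cell, although 17 of 18 lay above that library's median. The counts are of cells, which share a library and are not replicates.

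**Figure D3:**
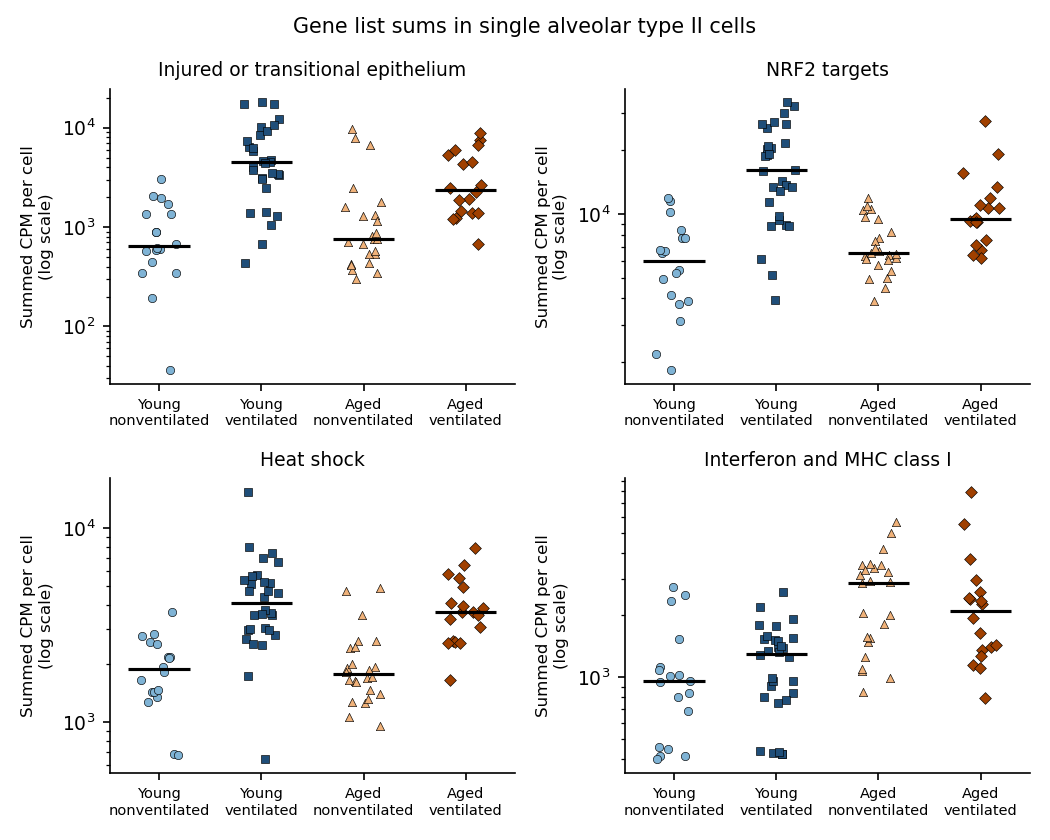
Summed CPM of 4 gene lists in single type II cells of at least 2000 UMIs (log axes), by library, with the median of each library as a line. For the injured or transitional epithelium list the medians were 645, 4472, 751 and 2358 CPM, and for the NRF2 list 6011, 16099, 6518 and 9471 CPM, in the order drawn.

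NRF2 is a transcription factor that is freed by oxidants and turns on genes of glutathione and thioredoxin metabolism. Its targets were represented by a list of 18 genes. *Osgin1*, a growth inhibitor induced by oxidative stress, was the 1 gene of the 9 compared at both ages that was at least 2-fold higher at both under the limits used here. Promoters were taken from RefSeq (GRCm38.p6), where 15 of the 18 genes matched, and searched on both strands for TGAC and GC set 3 bases apart, the core of the antioxidant response element that NRF2 binds. The 250 bases before a start of *Osgin1* (chr8:119436897-119437146, plus strand) are shown because it met this rule. This start lies inside the gene as the GRCm38 annotation draws it, which begins at 119434124. Those of *Gclm*, the modifier subunit of the glutathione-synthesizing ligase (chr3:122245307-122245556, plus strand), were added after the matches were seen as an example with 1 match. Capitals mark the match, which here lies on the other strand.
Osgin1: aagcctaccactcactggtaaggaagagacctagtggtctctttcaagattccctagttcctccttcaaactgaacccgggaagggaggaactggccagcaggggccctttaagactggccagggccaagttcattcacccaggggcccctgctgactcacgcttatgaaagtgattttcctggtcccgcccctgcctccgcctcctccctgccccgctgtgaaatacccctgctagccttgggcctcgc
Gclm: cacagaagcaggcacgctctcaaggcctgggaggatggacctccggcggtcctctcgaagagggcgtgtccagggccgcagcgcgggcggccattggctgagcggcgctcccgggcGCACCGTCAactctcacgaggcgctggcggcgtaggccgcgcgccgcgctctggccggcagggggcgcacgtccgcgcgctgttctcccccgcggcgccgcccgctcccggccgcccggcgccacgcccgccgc
In the 300 bases from 250 before to 50 after the start, 7 of the 15 genes had a match at 1 of its starts at least and *Osgin1* had none, beside 12.4% of 32851 promoters counted start by start, so that genes with several starts had more chances. In the 250 bases before the start alone, a window chosen after these matches were seen, 5 of the 15 had one, beside 10.2% of all promoters. A match is a description of these letters only.

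*Osgin1* was at 21.7, 389, 86.4 and 232 CPM, 17.9-fold higher with ventilation in young cells (interval 8.94 to 42.1) and 1.41 higher on the log2 scale in aged cells. *Gclc*, the catalytic subunit of the same ligase as *Gclm*, was the most abundant of the list in ventilated cells, at 1676, 8385, 1816 and 3386.5 CPM. Its log2 ratio with ventilation was 2.32 in young cells (interval of the ratio 4.60 to 5.45), and it was 1.86-fold higher in aged cells (1.72 to 2.03). The young ventilated level thus stood above the other 3 libraries, in which the aged ventilated was the highest. *Srxn1*, which restores oxidized peroxiredoxins, had 3, 93, 1 and 46 UMIs and fell under the filter, and the cystine carrier *Slc7a11* had 0, 36, 0 and 7 UMIs, at least 8.45-fold higher with ventilation in young and at least 2.55-fold in aged cells (floor of 3 counts per library).

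Of the 9 genes compared, 4 were at least 2-fold higher with ventilation in young cells (*Gclc*, *Osgin1*, *Prdx1* and the ferritin light chain *Ftl1*) and 1 in aged cells (7.77% and 3.49% over all genes compared), with median log2 ratios of 0.90 and 0.45. The aged count was 3 of 9 with an upper limit of 5000 genes. It was 3 of 9 with a surfactant share of at least 5% and 0 of 6 after thinning. In these settings 14.1%, 10.4% and 14.1% of all genes compared passed 2-fold in either direction. The aged median lay between 0.37 and 0.61 in 11 alternatives, beside 0.72 with a mitochondrial limit of 5% and 0.23 in the barcodes over 10%. *Ftl1*, whose reads may be split with processed copies, was at 1175, 3169.9, 1452 and 2439 CPM. The ferritin heavy chain *Fth1*, in contrast, had log2 ratios of -0.24 and 0.32. The list summed to 6735, 16799, 7135 and 11081 CPM in type II cells and to 8369.9, 17079, 9679 and 17108 CPM in the other barcodes, so that the sum was higher with ventilation in them too. Per cell, 21 of 30 young ventilated cells lay above the highest young nonventilated cell, and 4 of 18 aged ventilated cells above the highest aged nonventilated cell.

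Heat shock chaperones were higher with ventilation in young cells, and in aged cells fewer passed 2-fold. Of 6 heat shock genes compared, 5 were at least 2-fold higher in young and 2 in aged ventilated cells (7.77% and 3.49% over all genes compared), with medians of 1.34 and 0.94, and 11 of 11 and 9 of 11 genes with any UMI were higher. In the barcodes over 10% mitochondrial UMIs 0 of 3 passed in young and 1 of 5 in aged cells, with medians of 0.59 and 0.70. Over all genes compared there, 9.54% and 7.30% passed in either direction. Without the cells holding other markers 4 of 5 passed in young and 1 of 6 in aged cells, beside 17.4% and 9.31% over all genes. *Hspa8*, the constitutive HSP70, was at 823, 2028, 805 and 1553 CPM and *Hsp90aa1* at 406, 1155, 480.1 and 972 CPM. The small heat shock protein *Hspb1* was at 51.5, 202, 58.3 and 443 CPM, highest in the aged ventilated cells. Inducible *Hspa1a* was under the filter, at 10, 26, 11 and 26 UMIs. The list summed to 1988, 4590, 2017 and 3823 CPM, and in the other barcodes to 2863, 4360, 2750 and 3921 CPM.

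Genes of the unfolded protein response, which include chaperones of the endoplasmic reticulum that fold secreted proteins, summed highest in the aged ventilated cells. The list of 11 genes had 0 of 6 compared past 2-fold with ventilation in young and 1 of 7 in aged cells (15.9% and 9.49% over all genes compared). It summed to 1603, 1826, 2009 and 3266 CPM. *Hspa5*, the main chaperone of that compartment, was at 417, 555, 522 and 1019.9 CPM, and *Manf* at 81.2, 129.6, 120.5 and 281 CPM. Between the ventilated libraries, 3 of 7 genes compared were at least 2-fold higher in aged cells (*Manf*, *Herpud1* and *Dnajb9*), with a median of 0.88, beside 2.06% higher and a median of -0.09 over all genes compared. In the other barcodes the list summed to 1861, 2991, 2025 and 3105 CPM, higher with ventilation at both ages. Per cell, 14 of 18 aged ventilated cells lay above the highest of the 30 young ventilated cells.

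Genes of the surfactant system did not move together. *Sftpd*, a collectin that binds microbes and was not part of the rule, was at 2954.5, 5529.7, 3796.5 and 7286 CPM, 1.87-fold higher with ventilation in young cells (1.75 to 2.01) and 1.92-fold in aged cells (1.81 to 2.03). *Ctsh*, a protease that processes surfactant proteins B and C, was at 515, 1397, 703 and 1062 CPM. Lower values with ventilation were seen in young cells for *Slc34a2* (3047, 1287, 3093 and 2621 CPM), the lamellar body lipid transporter *Abca3* (899, 379, 593 and 544 CPM) and the lecithin-making enzyme *Lpcat1* (929, 387, 869.8 and 590.01 CPM). Their log2 ratios were -1.24, -1.24 and -1.26 in young and -0.24, -0.12 and -0.56 in aged cells. Of the 8 genes of the list outside the rule, 1 was at least 2-fold higher and 3 lower in young ventilated cells, with a median of -0.27, beside 7.77% higher and 8.17% lower over all genes compared. In aged cells 0 of the 8 passed, with a median of -0.07. In the barcodes over 10% mitochondrial UMIs 0 of the 11 genes of the whole list passed at either age. Over all genes compared there, 9.54% passed in young and 7.30% in aged cells.

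Lipid synthesis genes had lower summed counts in young ventilated cells, while the typical cell differed little. Of 11 lipid synthesis genes compared, 3 were at least 2-fold lower and 1 higher, with a median of -0.74 (8.17% lower and 7.77% higher over all genes compared), and 0 of 12 passed in aged cells, with a median of 0.08. Over the whole list, 18 of 19 genes with any UMI were lower in young ventilated cells and 13 of 20 in aged ones. The list summed to 6638, 4620.4, 5620.4 and 5626 CPM, but its medians per cell were 4649, 4414, 5548 and 5791 CPM, and the highest young cells reached 18625 CPM without and 18088 CPM with ventilation. In the barcodes over 10% mitochondrial UMIs 3 of 13 were at least 2-fold lower in young cells, with a median of -0.18. Of all genes compared there, 56 of 1593 were lower. *Hmgcs1*, an early enzyme of cholesterol synthesis, was at 246, 57.2, 137 and 94.3 CPM, and *Chka*, which starts phosphatidylcholine synthesis, was the exception at 412, 875, 235 and 338 CPM. The transcription factor *Etv5*, which sustains type II identity, was at 414, 124, 358 and 213 CPM, and its upstream receptor *Fgfr2* at 617, 249.7, 641 and 375 CPM. *Nkx2-1*, the master regulator of lung epithelium, was at 209, 109, 203 and 156 CPM, short of 2-fold at either age. Of 4 type II transcription factors compared, 1 was at least 2-fold lower in young and 0 in aged ventilated cells.

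The lysozyme *Lyz1* differed in direction between the ages. *Lyz1* and *Lyz2* are close copies whose reads may be hard to tell apart. *Lyz2* was at 12536, 15325, 20021 and 21666 CPM. *Lyz1* was at 2806, 427, 805 and 1191 CPM, so that its log2 ratio with ventilation was -2.71 at the young age and 0.56 at the aged. Its UMIs came from 7, 7, 9 and 6 cells, and 1 cell held 39.4%, 60.7%, 84.8% and 82.7% of them. Single cells thus held most of the UMIs in each library except the young nonventilated one. Among endothelial barcodes, which should lack it, 0.459%, 0.566%, 0.224% and 0.144% held a UMI. Of the secreted and defense genes compared, 1 was at least 2-fold higher and 1 lower of 10 in young, and 2 higher of 11 in aged ventilated cells. The young counts are near the 7.77% higher and 8.17% lower over all genes compared, and the aged count stands beside 3.49% higher. The list summed to 26293, 25904, 33465 and 36872 CPM.

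Among the other genes named by rank, *Pmvk*, an enzyme of the mevalonate pathway, was at 168, 993, 229 and 1513 CPM, 2.55 and 2.71 higher on the log2 scale with ventilation in young and aged cells. *Btg3*, which restrains proliferation, was at 228, 608, 227 and 654 CPM. Both were higher in each ventilated library, while in the other barcodes *Pmvk* was at 26.3, 30.1, 30.5 and 30.6 CPM. The secreted protein *Ndnf* (log2 ratios 3.27 and 0.22) and the lectin *Lgals3* (3.33 and 1.04) stood highest in young ventilated cells. The metallothioneins *Mt1* and *Mt2*, which bind zinc, had log2 ratios of 2.90 and 3.60 in young and 0.59 and 0.24 in aged cells. In the other barcodes *Mt1* was higher at both ages, at 729.5, 7466, 955 and 6279.5 CPM. *Tango6* (log2 ratio 2.71), the actin crosslinker *Flna* (2.02), the fumarate hydratase *Fh1* (2.05) and *Tinagl1* (1.91) were named in aged cells only by rank, and their ratios in young cells were 0.44, 1.00, 1.15 and 1.49.

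Several of the genes named for lower values with ventilation were lower at both ages. *Nrp1*, a coreceptor of VEGF and semaphorins, was at 726, 141, 492 and 147 CPM, and the metalloprotease *Adam19* at 333, 59.1, 399.7 and 70.2 CPM. *Gm20629* was at 496, 59.1, 490.1 and 94.3 CPM, and below 2 CPM in the other barcodes of each library. *Bex2*, *Kctd8* and *Ppp1r14c* had log2 ratios of -2.45, -2.89 and -2.02 in young and -1.98, -1.67 and -1.20 in aged cells. *Mllt3* was the lowest in young ventilated cells, at 287, 28.6, 96.4 and 123 CPM, but its log2 ratio was 0.34 in aged cells, and *Rad51b* likewise had -2.43 and 0.05. *Limch1* and *Kansl1l* were lower mainly in aged cells, with log2 ratios of -2.18 and -2.08 beside -0.82 and -0.18.

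**Figure D4:**
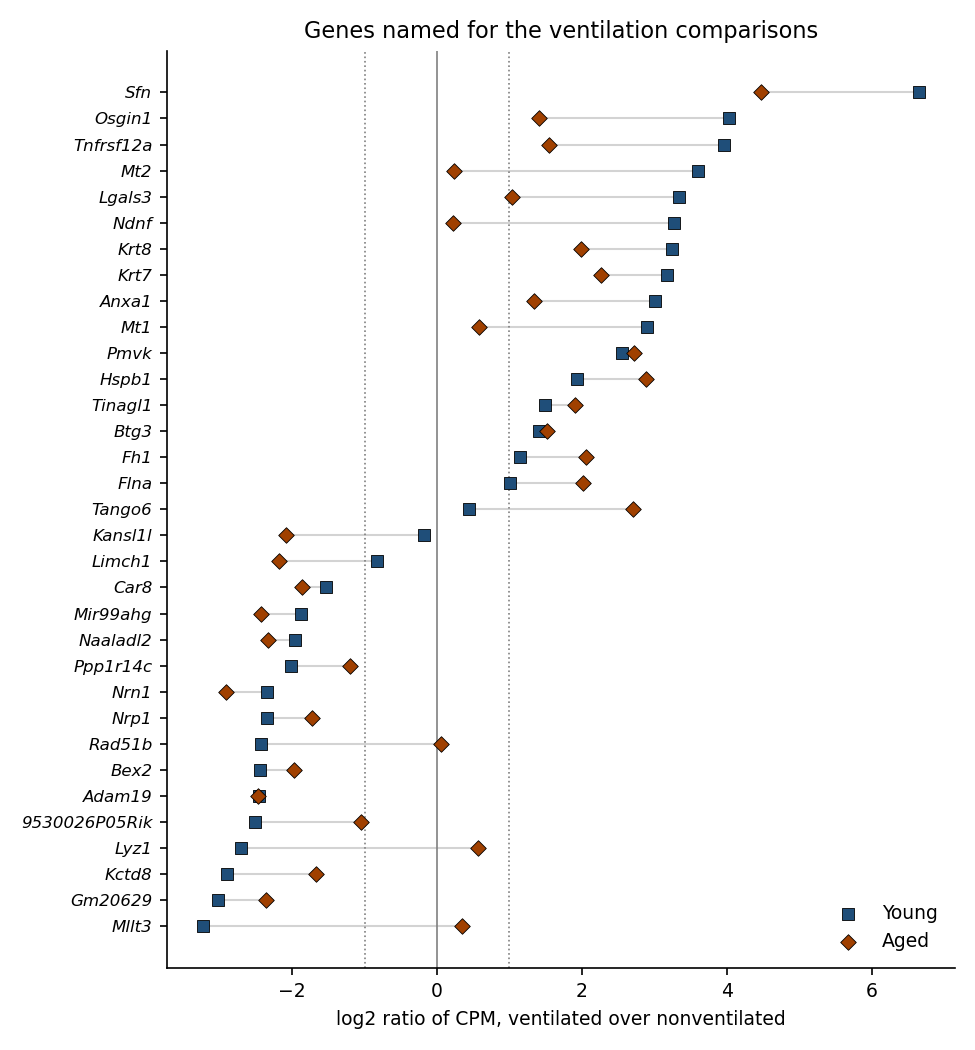
Log2 ratio of ventilated over nonventilated CPM in young (squares) and aged (diamonds) type II cells for the 33 genes named by rank at either age. Dotted lines mark 2-fold. Among these genes *Sfn* has the highest ratio at both ages (6.65 and 4.46), and *Lyz1*, *Mllt3* and *Rad51b* lie on opposite sides of 0.

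Age in nonventilated cells was accompanied by fewer differences, in 54 of 1495 genes (3.61%), with 18 higher (1.20%) and 36 lower (2.41%) in aged cells. The excess of lower genes did not hold in every setting, with 30 higher and 25 lower without the cells holding other markers, 27 and 26 without the deepest cell of each library, 36 and 38 with an upper limit of 5000 genes, and 30 and 24 after thinning to 2000 UMIs. The list of interferon and MHC class I genes had the highest median of all lists, 1.30, and its leading members display peptides to T cells. *H2-K1* was at 406, 478, 1055 and 921 CPM, *H2-D1* at 309, 417, 731 and 682 CPM and their light chain *B2m* at 165, 162, 446 and 382 CPM, with reads of *H2-K1* and *H2-D1* perhaps split between such close copies. Both aged libraries thus lay above both young libraries for each of the 3 genes. The aged nonventilated level was 2.60-fold that of young for *H2-K1* (2.16 to 3.13), 2.37-fold for *H2-D1* (1.91 to 2.95) and 2.70-fold for *B2m* (2.03 to 3.65). In the other barcodes *H2-K1* was at 947, 1009.5, 927.5 and 978 CPM.

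Of 4 genes of the interferon and MHC class I list compared, these 3 were at least 2-fold higher in aged nonventilated cells. Over all genes compared 1.20% were higher. Without the low-value filter, 12 of 16 genes with any UMI were higher in aged nonventilated and 9 of 16 in aged ventilated cells. Between the ventilated libraries the log2 ratios of aged over young were 0.94, 0.71 and 1.23 for *H2-K1*, *H2-D1* and *B2m*. The 2 age comparisons rest on different libraries. In the barcodes over 10% mitochondrial UMIs, which hold other cells of the same libraries, the list medians were 1.05 and 1.14. A mitochondrial limit of 5% left 3 cells in each nonventilated library. In that setting 1 of 5 genes was higher and 1 lower in aged nonventilated cells, with a median of 0.53. Of all 1164 genes compared there, 183 were higher and 199 lower. The whole list summed to 1254, 1319, 2593 and 2244 CPM, and in the other barcodes to 5587, 8864, 5564 and 6178 CPM. Per cell, 13 of 24 aged nonventilated cells lay above the highest of 18 young nonventilated cells. Of the interferon-induced genes of the same list, *Isg15* was at 1, 6, 3 and 1 UMIs and *Ifit1* at 2, 0, 0 and 0 UMIs.

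Lower in aged nonventilated cells were the transcription factors *Gata6* and *Klf5*, at 173 and 246 CPM in young and 54.2 and 98.4 CPM in aged cells, and *Hes1*, a target of Notch, at 289.8 and 106.5 CPM. *Malt1*, an activator of NF-kB, was at 35.2 and 269 CPM and *Hdac9* at 70.4 and 229 CPM. *Scgb1a1* was at 1110.3 and 464 CPM, and without the 9 cells carrying other markers its log2 ratio turned from -1.25 to 1.14. In the barcodes over 10% mitochondrial UMIs, 5 of the 12 genes named for this comparison kept their direction, and *Malt1* (-0.14) and *Hes1* (0.38) were among those that turned. With a mitochondrial limit of 5%, *Gata6* (0.45) and *Hes1* (1.04) turned.

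Between the ventilated libraries 101 of 1456 genes (6.94%) differed by age, with 30 higher (2.06%) and 71 lower (4.88%) in aged cells. The higher ones made up 29.7% of these calls, and 42.2% when CPM were taken without the 3 surfactant genes of the rule. *Lcn2*, an iron-sequestering defense protein, was at 490.2, 659.5, 849.7 and 1928 CPM and was highest in the aged ventilated cells. *S100a6*, *Anxa1*, *Ahnak* and *Lmo7* were lower in aged ventilated cells, with log2 ratios of -2.24, -2.14, -1.67 and -1.59. Of 11 genes of the injured or transitional epithelium list compared, 7 were at least 2-fold lower in aged ventilated cells, with a median of -1.15. With an upper limit of 5000 genes per cell these became 3 genes and -0.41, and without the deepest cell of each library 3 and -0.83. With the mean of per-cell CPM they were 2 and -0.77, and with each cell thinned to 2000 UMIs 1 of 7 genes and -0.59. In these settings 9.55%, 6.28%, 10.4% and 12.4% of all genes compared passed 2-fold in either direction. Without the cells holding other markers 5 genes were lower, with a median of -0.98. Either limit on surfactant share kept 7 genes. A mitochondrial limit of 5%, which left 10 young and 2 aged ventilated cells, gave 11 of 11 genes and -2.57. Of all genes compared in that setting, 238 of 1086 were lower. In the barcodes over 10% mitochondrial UMIs 1 of 8 genes was lower, with a median of -0.57, beside 134 lower of all 1594 genes. The median stayed below 0 in each of these settings, while the count of genes moved between them.

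The counts of the lists that follow stand beside 15.9% of all genes compared past 2-fold in either direction in young and 9.49% in aged cells. Of 6 EGF and FGF signaling genes compared, 3 were higher (*Areg*, *Hbegf* and *Vegfa*) and 2 lower (*Fgfr2* and *Etv5*) by at least 2-fold in young ventilated cells, and *Vegfa* alone passed in aged cells, and the list summed to 2589, 3103, 2609 and 2472 CPM. Of 5 glucocorticoid and metal response genes, 2 were higher and 1 lower in young cells, and 0 of 4 passed in aged cells, with sums of 1514, 2707, 1507 and 1623 CPM. Of 75 ribosomal protein genes compared, 1 was past 2-fold with ventilation in young and 0 in aged cells. MHC class II genes, which type II cells express, had 0 of 4 past 2-fold at either age, with *Cd74* at 2643, 2638, 3079 and 3073 CPM. Of 13 immediate early genes, 2 were lower (*Fos* and *Ier2*) and 1 higher (*Ier3*) in young ventilated cells, and 0 of 12 passed in aged cells, with sums of 10183, 6788, 7430.2 and 7609 CPM. Integrated stress response, ion and fluid transport and respiratory chain genes had 0 of 4, 0 of 6 and 1 of 47 past 2-fold in young and none in aged cells. Of 8 junction genes 1 passed at each age, which was *Krt8*, also on the injured epithelium list. Of 2 chemokine, cytokine and NF-kB genes compared, 1 was at least 2-fold higher in young and 0 in aged ventilated cells. The neutrophil chemokines *Cxcl1*, *Cxcl2* and *Cxcl5* were each under 50 CPM, and no cell cycle gene passed the filter. Of the clock genes, 1 was compared for ventilation in young cells, with a log2 ratio of -1.01, and 0 in aged cells. The clock gene *Dbp* was at 86.7, 15.2, 135 and 28.5 CPM, under the filter for ventilation.

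**Figure D5:**
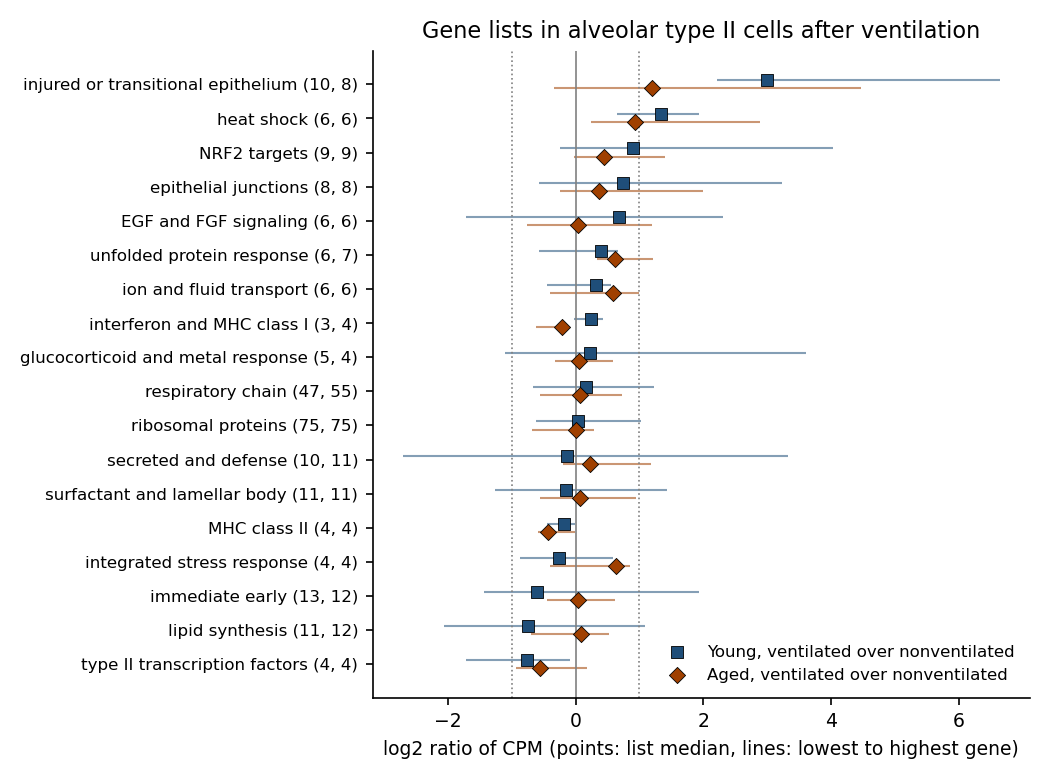
Median log2 ratio of ventilated over nonventilated CPM for 18 gene lists in young (squares) and aged (diamonds) type II cells, with lines from the lowest to the highest gene and, in brackets, the genes compared in young and aged cells. Dotted lines mark 2-fold, and the injured or transitional epithelium list has the highest median at both ages (3.00 and 1.20).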

How the data were processed

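Lung cells were profiled with the 10x Chromium 3′ assay. The authors aligned reads to mm10 with Cell Ranger 7.0.0 and deposited raw UMI counts, as whole numbers for each gene in each barcode. The methods state no change to the intron setting, and this version counts intronic reads by default, which adds reads to long genes. UMIs of the 94 members were summed per library and scaled to CPM, and log2 ratios used a prior of 1 UMI on average, scaled to the library totals. Each library held 369262 to 524625 member UMIs, so that genes under 100 CPM rest on few UMIs. Positions came from a GRCm38 annotation matched by identifier for 32158 of 32285 genes. Per comparison, the 10 rises and 10 falls (6 and 6 for age) whose interval bound nearest 1 lay farthest from it were named, given at least 3 cells with a UMI and no cell with over 50% of the gene's UMIs in the library where it was higher, so that 1 cell may dominate the lower library. Any gene of a list or marker set could also be named. The members and lists were chosen with earlier results of these data known. No doublet caller was run, and cells with other markers were left out as an alternative. Settings tried were limits on genes, mitochondrial UMIs, surfactant share and depth, scaling, weighting, thinning, prior and filter. Steps were tested on simulated data. Python 3.11.15, numpy 2.4.6, scipy 1.17.1, pandas 2.3.3 and matplotlib 3.10.9 were used.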

Additional observations from a re-analysis of the deposited data

Results flagged for a closer look

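*Lyz1* had log2 ratios of ventilated over nonventilated of -2.71 in young and 0.56 in aged cells. It is listed because the ages moved in opposite directions, and the difference was not tested. In the aged libraries 1 cell held 84.8% (nonventilated) and 82.7% (ventilated) of its UMIs.

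Barcodes over 10% mitochondrial UMIs that met the rest of the rule were outside the comparisons. Young lungs gave 30 without and 32 with ventilation, and aged lungs 52 and 22. In them, with CPM taken over UMIs other than mitochondrial ones, all 20 genes named for ventilation in young cells and all 20 in aged cells kept their direction, 13 and 11 of them past 2-fold. The smallest of these ratios were -0.11 for *Mllt3* in young and -0.0089 for *Car8* in aged cells. Of the genes named for age, 5 of 12 kept their direction in nonventilated and 10 of 12 in ventilated cells. The medians of the injured or transitional epithelium list with ventilation were 1.23 in young and 0.99 in aged cells, and those of the NRF2 list 0.79 and 0.23. For the heat shock list they were 0.59 and 0.70, with 0 of 3 and 1 of 5 genes past 2-fold. For the surfactant and lamellar body list 0 of 11 passed at each age. Over all genes compared in these barcodes, 9.54% passed with ventilation in young and 7.30% in aged cells.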

How the results depend on the processing

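No paired analysis was possible because each group was 1 pooled library without replicate numbers. Under 13 alternatives, 641 of 832 log2 ratios of named genes stayed within their counting interval and 16 reversed. Several of these settings keep nearly the same UMIs, such as 1 UMI added to each sum, where 64 of 64 stayed within it. With a mitochondrial limit of 5% 15 of 64 did, and in the barcodes over 10% mitochondrial UMIs 12 of 64. A mitochondrial limit of 5%, which left 3, 10, 3 and 2 cells, gave shares of 0.133%, 0.392%, 0.133% and 0.103% and 509, 256, 382 and 386 genes past 2-fold (young ventilation, aged ventilation, age without and age with ventilation). It reversed *Flna* (-1.12) and *Mir99ahg* (0.48) in aged ventilation, *Scgb1a1* (1.05), *Gata6* (0.45) and *Hes1* (1.04) in nonventilated age, and the medians of type II transcription factors in young (1.44) and, in aged ventilation, of integrated stress response (-0.45), injured or transitional epithelium (-2.59) and ion and fluid transport (-0.18). A limit of 20%, chosen after seeing the data, gave shares of 1.29%, 1.38%, 1.66% and 1.18%, 83 genes in aged ventilation and 19 in nonventilated age, and *Scgb1a1* at 0.60. Without a filter on low values 4952, 4158, 3864 and 4168 genes passed 2-fold. Thinning to 2000 UMIs gave 157 (young ventilation) and 75 (aged ventilation), with fewer genes compared, and reversed EGF and FGF signaling in young (-0.16) and ion and fluid transport in aged ventilation (-0.28). The mean of per-cell CPM gave 153 genes for age with ventilation. Without cells holding other markers *Scgb1a1* was at 1.14. In the barcodes over 10% mitochondrial UMIs, also chosen after seeing the data, medians reversed for type II transcription factors (0.053), integrated stress response (-0.50) and ion and fluid transport (-0.16) in aged ventilation and for integrated stress response in nonventilated age (0.058). So did *Malt1* (-0.14), *Areg* (-0.98), *Slco2a1* (-0.96), *Mllt3* (0.86), *Scgb1a1* (2.52), *Hes1* (0.38) and *Prkci* (0.27) in nonventilated age and *Tango6* (-0.96) and *Ror1* (-0.070) in ventilated age. The causes were not tested.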
